A study of Homo sapiens with 4 samples.

Results

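Exon peaks of protein-coding genes are stretches of RNA that the authors annotated as exon rather than untranslated region (UTR) or intron. There, reads piled up after pulldown of NSUN2 above the level in the RNA before pulldown. Members were every row of 2 deposited peak lists with the biotype protein_coding and the last field of the annotation equal to exon. They numbered 16497 of 95785 peaks in the vehicle and 7668 of 48104 in the lactate list, together 24165 of 143889. Wild-type PANC-1 cells, an established line from a human pancreatic ductal adenocarcinoma, had grown in 10% serum and were given 30 mM sodium lactate or double-distilled water as the vehicle for 24 h. Each list set the RNA precipitated in 4 h with an anti-NSUN2 antibody (the IP) against the RNA of the same lysate taken beforehand (the input). Input and IP of each treatment made 4 groups of a single library (1 per group), so that no value has a replicate check and none is tested. A library precipitated with a control antibody was not analysed here, and an enrichment in the IP is not shown to be owed to NSUN2.

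NSUN2 is a methyltransferase that turns cytosine into 5-methylcytosine (m5C) in transfer RNAs and in some messages. Its sites in messages have been described within a short sequence with a C followed by a run of G, CNGGG, whereas the related enzyme NSUN6 is known for CTCCA. Immunoprecipitation with sequencing finds the RNA held by the antibody and reports no methylation. The series title links NSUN2, lactate-derived protein modification and the growth of tumours along nerves.

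A genome was not given, and sequence could be read only where an exon peak ran into a RefSeq window around a gene start or over a RefSeq microRNA hairpin (assembly GRCh38.p14; the peaks are on GRCh38 per the submitters' processing notes). The following stretches are those of highest authors' fold in the vehicle list among exon peaks that had q under 0.05 in both lists and reached at least 100 bases into the start window of an overlapping gene that is not protein-coding. They are shown because they are parts of vehicle exon peaks that a lactate exon peak overlaps. The SYP stretch itself lies outside its lactate peak, which is at chrX:49198190-49198469. Each is printed 5′ to 3′ on the strand of the peak's gene, with every CNGGG in capitals. Which of the printed bases are exon and which are intron was not determined.
PTPN11, chr12:112488934-112489233, plus strand: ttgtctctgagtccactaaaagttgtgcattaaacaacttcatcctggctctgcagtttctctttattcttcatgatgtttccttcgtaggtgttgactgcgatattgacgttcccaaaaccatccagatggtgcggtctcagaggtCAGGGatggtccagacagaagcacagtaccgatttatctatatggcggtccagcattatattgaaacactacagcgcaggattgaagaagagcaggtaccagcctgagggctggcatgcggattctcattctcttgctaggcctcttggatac
PCDHA12, chr5:140875842-140876044, plus strand: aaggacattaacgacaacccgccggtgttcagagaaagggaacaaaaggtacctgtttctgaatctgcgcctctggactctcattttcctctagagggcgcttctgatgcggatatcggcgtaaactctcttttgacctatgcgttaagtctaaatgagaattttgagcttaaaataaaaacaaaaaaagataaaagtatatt
TMEM131, chr2:97775698-97775916, minus strand: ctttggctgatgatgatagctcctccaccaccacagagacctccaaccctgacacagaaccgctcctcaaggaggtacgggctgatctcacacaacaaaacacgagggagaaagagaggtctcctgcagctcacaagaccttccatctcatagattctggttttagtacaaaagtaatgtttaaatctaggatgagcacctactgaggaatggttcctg
SYP, chrX:49198589-49198718, minus strand: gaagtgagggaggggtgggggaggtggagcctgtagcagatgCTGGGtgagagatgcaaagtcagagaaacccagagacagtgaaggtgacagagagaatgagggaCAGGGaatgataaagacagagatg
EFCAB14, chr1:46686728-46687027, minus strand: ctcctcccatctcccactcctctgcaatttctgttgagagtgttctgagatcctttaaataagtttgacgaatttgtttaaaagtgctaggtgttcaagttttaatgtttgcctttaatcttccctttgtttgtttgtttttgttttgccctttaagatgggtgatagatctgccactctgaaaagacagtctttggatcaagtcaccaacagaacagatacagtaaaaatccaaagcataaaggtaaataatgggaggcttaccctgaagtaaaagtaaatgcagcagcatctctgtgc
The PTPN11 stretch held 1 CNGGG, the SYP stretch 2, and the stretches of PCDHA12, TMEM131 and EFCAB14 held 0. PTPN11 encodes the phosphatase SHP2, PCDHA12 a protocadherin of neuronal contacts and SYP the synaptic vesicle protein synaptophysin. Their peaks had authors' folds of 14.4 in the vehicle and 5.26 in the lactate list for PTPN11, 12.1 and 4.28 for PCDHA12, 10.4 and 13.8 for TMEM131, 10.3 and 4.28 for SYP, and 10.2 and 10.3 for EFCAB14.

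MicroRNA hairpins lay whole inside an exon peak, on the strand of its gene, at 10 places, 9 of them in the vehicle and 5 in the lactate list. The 4 found in both lists are given here because a peak annotated as exon covers the same named small RNA precursor in each condition.
MIR4721 in TUFM, chr16:28843919-28844007, minus strand: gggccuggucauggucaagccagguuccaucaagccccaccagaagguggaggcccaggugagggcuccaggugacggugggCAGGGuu
MIR4751 in ATF5, chr19:49933064-49933137, plus strand: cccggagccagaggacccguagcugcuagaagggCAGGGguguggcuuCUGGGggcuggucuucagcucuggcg
MIR6727 in INTS11, chr1:1312502-1312566, minus strand: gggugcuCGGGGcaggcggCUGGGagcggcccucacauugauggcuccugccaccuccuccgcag
MIR6858 in FAM50A, chrX:154450320-154450386, plus strand: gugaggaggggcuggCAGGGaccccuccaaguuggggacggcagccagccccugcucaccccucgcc
The hosts are TUFM (the mitochondrial elongation factor Tu), ATF5 (a transcription factor of the stress response), INTS11 (the endonuclease of the Integrator complex) and FAM50A. Each of these 4 hairpins holds CNGGG, MIR4751 and MIR6727 2 times. Of all 10, 8 hold it (80.0%), beside 436 of the 1063 RefSeq hairpins of the same range of length, 62 to 92 bases (41.0%). The first share rests on 10 hairpins only. The RefSeq hairpins were matched for length but not for base composition or host gene, so the difference is not a result about NSUN2. The peak over MIR6727 was 1365 bp wide with an authors' fold of 14.7 in the vehicle and 341 bp with 6.86 in the lactate list. The peak over MIR4721 had a fold of 3.39 and q of 2.18e-12 in the vehicle list but a fold of 2.18 and q of 0.50 in the lactate list. The libraries do not tell the hairpin from the transcript around it, and whether its bases are exon or intron was not determined.

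Stretches of at least 100 bases were held for 260 vehicle and 89 lactate exon peaks, most of them near gene starts, so they do not stand for all exon peaks. CNGGG lay in the central 100 bases on the gene strand in 153 of 260 (58.8%, 95% Wilson interval 52.8% to 64.7%) and 60 of 89 (67.4%, 57.1% to 76.3%). It lay in the same length of 54.9% of all 35116 RefSeq start windows. CTCCA lay in 28 of 260 (10.8%) and 14 of 89 (15.7%), beside 14.5% of the start windows. On either strand CNGGG was in 76.5% and 86.5% of the exon stretches and in 73.9% of start windows, and CTCCA in 27.7%, 29.2% and 27.6%. The motifs were counted separately, and a match is only a description of these letters.

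The reads of genes outside the mitochondrial genome, unlike the total reads of the IPs, differed in the direction of the peak numbers. The inputs gave 5511674 (vehicle) and 2339151 (lactate) such reads, a ratio of 2.36, and the IPs 4125809 and 2112540, a ratio of 1.95. Total reads were 11175432 to 17626197, of which genes took up 96.4% to 98.0%, mitochondrial genes included. The total was higher in the lactate IP, at 15189967 reads beside 13620414 in the vehicle IP. Genes outside the mitochondrial genome took up 30.3% of the total in the vehicle IP and 13.9% in the lactate IP, and 31.3% and 20.9% in the inputs. The part of these differences in the counts below was not tested. They are reads and shares of reads within a library and do not give the amount of RNA per cell. The epithelial keratin gene KRT18 stood at 45.5 to 292 FPKM (reads scaled for gene length and library depth) and the vimentin gene VIM at 50.2 to 237, while EPCAM (0.108 to 1.56) and KRT7 (0.0671 to 0.808) were low. Of the neuron, Schwann cell, endothelial and immune markers that were listed, SOX10, TUBB3, NEFL, CDH5 and PTPRC, the highest value was 0.0297. The fibroblast collagen genes COL1A1 and COL3A1 stood at 0.468 to 2.18.

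Exon peaks were fewer and narrower in the lactate list. Vehicle cells had 2.15 times as many exon peaks as lactate cells, beside 1.99 times for all peaks, 2.41 times for 5′ UTR, 1.67 times for 3′ UTR and 1.91 times for intron peaks of protein-coding genes. Exon peaks made up 17.2% of the vehicle list (95% Wilson interval 17.0% to 17.5%) and 15.9% of the lactate list (15.6% to 16.3%). These intervals, like all others here, cover counting error only. Among exon peaks of q under 0.05 the ratio was 2.41, with 10312 in the vehicle and 4286 in the lactate list. The q is the authors' own, a p-value adjusted within each list.

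The median exon peak was 327 bp wide in the vehicle list (interval of the median 322 to 331) and 280 bp in the lactate list (275 to 287). Widths ran from 200 bp, the least any listed peak has, to 2373 and 2283 bp, with upper quartiles of 437 and 398 bp. At exactly 200 bp stood 28.0% of vehicle and 30.0% of lactate exon peaks. The widths of exon peaks summed to 6015 kb in the vehicle and 2534 kb in the lactate list. For comparison, the median widths in the vehicle and lactate lists were 332 and 300 bp for 3′ UTR, 224 and 209 bp for 5′ UTR and 215 and 201 bp for intron peaks.

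**Figure D1:**
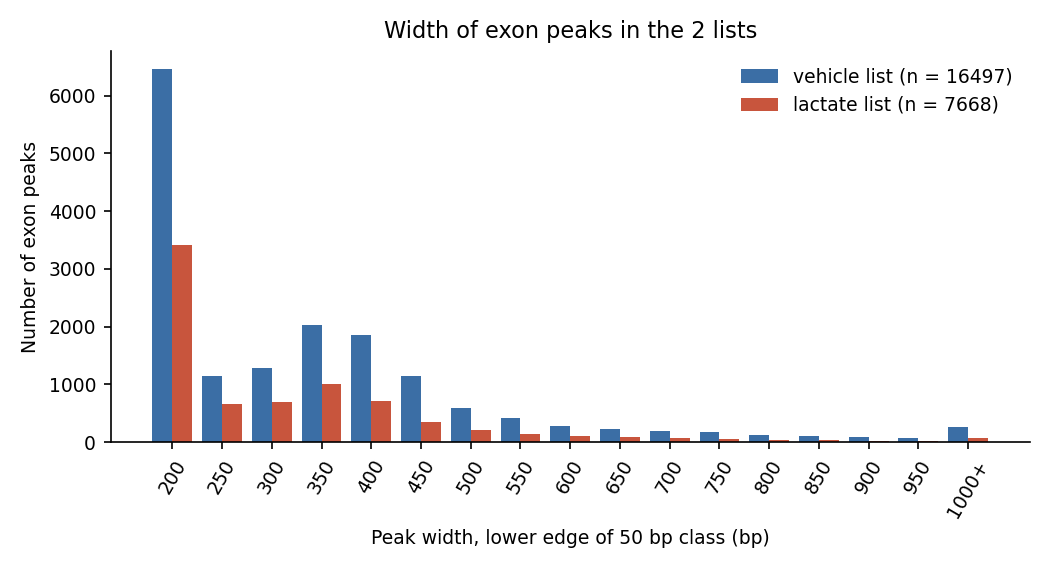
Number of exon peaks (vertical axis) by width in classes of 50 bp (horizontal axis, bp), for the vehicle list in blue and the lactate list in red. The class from 200 bp holds more peaks than any other class in each list, and a second rise stands in the class from 350 bp, with 2023 vehicle and 1008 lactate exon peaks.

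The annotation was set against RefSeq gene spans by symbol. Of the exon peaks, 99.8% in each list found a span on the same chromosome, and 98.9% of the matched vehicle and 99.0% of the matched lactate summits lay inside it. Exon summits lay towards the end of the genomic span, with a median position of 65.2% from the start in the vehicle and 68.1% in the lactate list. The span includes introns, and where the exons themselves lie in it was not measured. Intron summits had medians of 45.5% and 44.4%, 3′ UTR summits 94.5% and 96.1%, and 5′ UTR summits 10.3% and 12.7%. The last 10% of the span held 19.6% of vehicle and 22.5% of lactate exon summits, and the first 10% held 8.13% and 7.12%.

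The median authors' fold of an exon peak was 3.52 in the vehicle list (quartile above, 5.46; highest, 78.5) and 3.64 in the lactate list (5.31 and 48.02). A q under 0.05 was given to 62.5% and 55.9%, beside 48.6% and 42.7% of all listed peaks, and for 2075 (12.6%) and 1180 (15.4%) it was at least 0.999. The p-value itself was under 0.05 for every exon peak. Folds clustered on steps of 0.607 in the vehicle and 0.517 in the lactate list. If the fold is read as defined by MACS2, a peak caller named in the submitters' processing notes, scaled depth plus 1 over background plus 1, each step is 1 read at a place where the input is at its lowest background. Of the exon peaks, 38.7% in the vehicle and 40.04% in the lactate list stood on such a step, within 0.003 of a step, beside 72.1% and 75.7% of intron peaks and 24.6% and 24.7% of 3′ UTR peaks. Their median depth was 4 and 5 reads, and 26.9% and 21.2% of all exon peaks had a depth of 5 reads or fewer.

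The authors also deposited a table that sets the IP libraries against each other. It gives a region for every exon peak, from which the reads of each IP were recovered. The median region held 11 reads of its own IP for vehicle exon peaks (quartiles 4 and 43) and 14 for lactate exon peaks (5 and 43). The recovered reads often fell short of the peak. Among exon peaks on a step, the region held fewer reads of its own IP than the depth at the summit in 2210 of 6381 (34.6%, 95% Wilson interval 33.5% to 35.8%) in the vehicle and 1014 of 3070 (33.0%, 31.4% to 34.7%) in the lactate list. The same shares were 1.25% and 1.27% for intron peaks, 22.4% and 16.5% for 3′ UTR peaks and 35.7% and 36.4% for 5′ UTR peaks. No reads of the own IP were recovered at 1098 vehicle (6.66%) and 395 lactate exon peaks (5.15%), beside 0.633% and 0.461% of intron peaks. The recovered reads thus fell short of the peak more often at exon than at intron peaks, which bears on every read number and log2 ratio of the IP libraries below, and the cause was not tested.

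**Figure D2:**
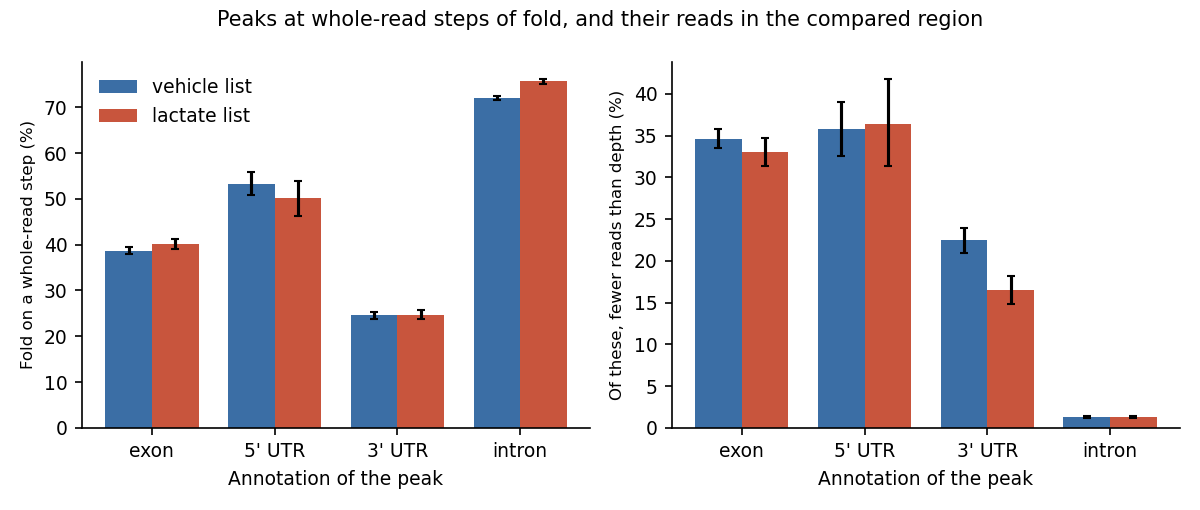
Share of peaks of protein-coding genes whose authors' fold stands on a whole-read step (left, %), and share of those with fewer recovered reads in their own IP than that depth (right, %), by annotation, for the vehicle (blue) and lactate list (red); bars carry 95% Wilson intervals of counting error. The right bars stand at 34.6% and 33.0% for exon and at 1.25% and 1.27% for intron peaks.

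Genes with an exon peak numbered 6660 in the vehicle and 4068 in the lactate list. They shared 3520 genes, 52.9% of the vehicle and 86.5% of the lactate genes, with 3140 only in the vehicle and 548 only in the lactate list. Among the shared genes, 2001 had more exon peaks in the vehicle list, 1277 equal numbers and 242 more in the lactate list. Genes in 1 list only mostly had a single exon peak, 2114 of 3140 (67.3%) and 513 of 548 (93.6%). A gene with an exon peak had 2.48 of them on average in the vehicle and 1.88 in the lactate list, and 186 and 28 genes had 10 or more.

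Longer genes carried more exon peaks. Among 7413 protein-coding genes at FPKM of at least 1 in at least 1 library, the median RefSeq span was 18.1 kb without a vehicle exon peak, 24.6 kb with 1, 43.5 kb with 2 to 4 and 89.7 kb with 5 or more. For the lactate list the spans were 22.9, 31.5, 54.9 and 105.3 kb. The median FPKM in the same IP rose along these groups from 2.52 to 5.13 in vehicle and from 1.21 to 3.50 in lactate cells. The share of genes with an exon peak was lowest at the lowest FPKM and did not rise in the class from 30. An exon peak was listed for 9.86% of genes at FPKM under 0.1 in the vehicle IP, 46.6% from 0.1 to 1, and between 61.7% and 68.2% in the classes above 1, and for 4.106%, 30.3% and 34.7% to 50.5% in the lactate IP.

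Most lactate exon peaks lay over a vehicle exon peak. At a minimum of 1 shared bp, 5453 of 7668 lactate exon peaks (71.1%) overlapped a vehicle exon peak, and 5376 of 16497 vehicle exon peaks (32.6%) overlapped a lactate one. The lengths of the lists bound the second share, which would be 46.5% if each lactate exon peak met 1 vehicle exon peak. No peak of any annotation lay in the other list for 10485 vehicle (63.6%) and 1976 lactate exon peaks (25.8%), beside 72.2% and 43.6% of all listed peaks. Those vehicle peaks were weak, with a median fold of 3.03, a median width of 230 bp and q under 0.05 in 47.5%, against a fold of 5.30, 426 bp and 88.5% for the overlapped ones. For the lactate peaks the values were 2.85, 200 bp and 19.5% against 3.99, 341 bp and 68.6%. A few overlapped a peak with another annotation, mostly 3′ UTR (499 vehicle and 167 lactate exon peaks). Of the vehicle exon peaks without a partner, 6069 (57.9%) were in genes that had an exon peak elsewhere in the lactate list. Peaks of 3′ UTRs overlapped their own kind in 42.3% of the vehicle and 71.6% of the lactate list, and intron peaks in 23.9% and 46.5%.

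The overlap rose with the strength of the peak. Of vehicle exon peaks with a fold from 1 to 2, 8.99% were overlapped, from 3 to 4 24.8%, from 7.5 to 10 63.2% and at 20 or more 94.2% (213 of 226). Of lactate exon peaks, 53.5% were overlapped from 2 to 3, 76.0% from 4 to 5 and all 66 at 20 or more. The 355 lactate exon peaks with a fold under 2 broke this order, with 86.5% overlapped. By width, 6.81% of vehicle exon peaks at 200 bp and 64.3% of those of 600 bp or more were overlapped, and 39.8% and 89.5% in the lactate list.

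**Figure D3:**
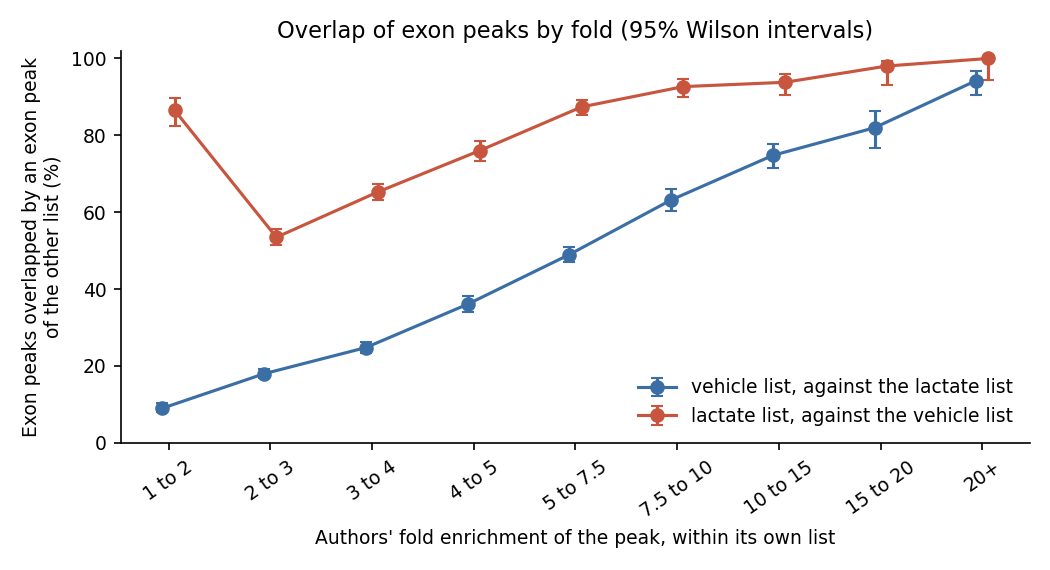
Share of exon peaks overlapped by at least 1 bp by an exon peak of the other list (vertical axis, %), by the authors' fold within the own list (horizontal axis, classes), with 95% Wilson intervals. The vehicle list (blue) climbs from 8.99% to 94.2%, and the lactate list (red) from 53.5% to 100% after a first class at 86.5%.

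Where exon peaks of both lists overlapped, their summits mostly lay close together. There were 5264 pairs in which each peak overlapped only the other, 99.9% of them with the same gene. Their summits were a median of 30 bp apart, and 65.6% lay within 50 bp. The pairs were chosen by overlap, which by itself keeps the peaks of a pair near each other and favours a shared gene. These values therefore do not show how often the lists place a peak at the same site. The median width in these pairs was 424 bp in the vehicle and 340 bp in the lactate list. The vehicle peak was the wider in 77.5% and the lactate peak in 18.7% of pairs.

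The exon peak of highest fold in the vehicle list was that of SLC5A3, the sodium and myo-inositol cotransporter, at 78.5 (chr21:34096579-34097377, 799 bp). It was followed by ANKRD17 at 73.2, SMARCC1, a core subunit of the BAF chromatin remodeller, at 61.3, DSP, the desmosome protein desmoplakin, at 55.9, and SUPT16H, a subunit of the histone chaperone FACT, at 53.0. TOB2, TNFAIP2, the kinase WNK1, the histone methyltransferase KMT2A and the RNA helicase DDX27 stood between 48.9 and 43.5. A lactate exon peak overlapped all 10, with folds in its own list from 8.98 for DSP to 24.8 for TNFAIP2. SLC5A3 had 282 vehicle IP reads and 201 lactate IP reads in its region, SMARCC1 162 and 71, DSP 191 and 89, and SUPT16H 284 and 116. ANKRD17 stood apart, with 13 and 11 reads behind folds of 73.2 and 14.2.

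In the lactate list the highest exon peaks were those of MAP4K4, a kinase of stress signalling, at 48.02, KMT2B, a histone methyltransferase, at 43.5, VGLL4, a cofactor of TEAD factors, at 43.2, CHD5, a chromatin remodeller, at 42.0 and KAT6B, a histone acetyltransferase, at 41.0. SMARCA4, the ATPase of the BAF complex, LRFN4, MAP1B, a microtubule-binding protein, EPB41L2 and CDCP1 followed from 36.6 to 30.1. A vehicle exon peak overlapped all 10, with folds from 6.84 for LRFN4 to 41.7 for MAP1B. MAP1B had 7510 vehicle and 2924 lactate IP reads in its region, CHD5 7 and 11. LRFN4 had 104 and 117 reads in its region but only 22 and 16 recovered from the gene's FPKM, which can be understated, and the source of the gap was not tested. In all, 20 of 226 vehicle and 7 of 66 lactate exon peaks of fold 20 or more had a fold above their recovered reads plus 1. That limit is lenient, since by the steps above 1 read adds at most 0.607 or 0.517 to a fold. More of these peaks can thus lack the reads of their fold.

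DST, the cytoskeletal linker dystonin, had the most exon peaks in both lists, 42 in the vehicle and 33 in the lactate list, of which 28 and 26 overlapped a peak of the other list. MACF1, a linker of actin and microtubules, had 35 and 12, BDP1, a subunit of the RNA polymerase III factor TFIIIB, 29 and 13, and TPR, the nuclear pore basket protein, 26 and 17. KTN1, the kinesin receptor kinectin, had 23 and 7, the centrosomal CEP350 22 and 16, BAZ2B 21 and 12, the kinetochore motor CENPE 20 and 7, PCM1 of the centriolar satellites 20 and 13, and AKAP13 19 and 12. The lactate list's first 10 also held CENPF (19 and 15), PRRC2C (19 and 15), BPTF (16 and 14), ARHGEF12 (16 and 13) and BOD1L1 (19 and 13). DST stood at FPKM 0.932 before and 5.40 after precipitation with vehicle, and at 0.669 and 2.53 with lactate, higher in each IP than in its input. Over these 15 genes the vehicle IP value ran from 1.14 for MACF1 to 67.6 for PRRC2C. The median fold of the DST peaks was 6.05 in the vehicle and 4.75 in the lactate list, and the highest 33.6 and 17.2.

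By gene list, chromatin remodelling subunits, keratins and vimentin, aminoacyl-tRNA synthetases and large cytoskeletal proteins held the highest shares of genes with a vehicle exon peak, and ribosomal proteins the lowest. Of the 7413 genes above, 60.9% had a vehicle and 40.4% a lactate exon peak. The chromatin remodelling subunits had one in 20 of 20 in the vehicle and 18 of 20 in the lactate list, and the peaks numbered 165 and 91. BPTF had 16 and 14, SMARCC1 13 and 7, BAZ1B 10 and 9 and INO80 10 and 8, and ARID2 (3) and CHD9 (5) had vehicle peaks only. The large cytoskeletal and motor proteins had one in 15 and 13 of 16, with 42 and 33 in DST, 13 and 11 in SPTBN1 and 16 and 7 in UTRN, while SPTAN1 had 1 and 5. The median span of these 2 lists was 112 and 110.0 kb, beside 29.5 kb over all 7413 genes (7395 with a span).

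Integrins, laminins and collagens had an exon peak in 13 of 15 genes in the vehicle and 10 of 15 in the lactate list. ITGA6, a laminin-binding integrin, had 11 and 10, LAMB1 8 and 6 and LAMC1 9 and 4. ER chaperones had one in 11 and 8 of 13, among them HSP90B1 with 7 and 4 and PDIA3, a disulfide isomerase, with 7 and 5. In the list of perineural invasion and axon guidance the counts were 9 and 6 of 12. The 95% Wilson intervals of these last 2 lists, 57.8% to 95.7% and 35.5% to 82.3% for ER chaperones and 46.8% to 91.1% and 25.4% to 74.6% for the perineural list, include the shares of all genes. The receptor NRP1 had 7 and 2, the ligand SEMA3C 5 and 2, and EPHB2 4 and 2. The messages of SEMA3C and NRP1 were lower in the IP than in the input, with log2 ratios of FPKM + 1 of −1.87 and −1.46 in vehicle and −3.05 and −1.56 in lactate cells. Keratins and vimentin had one in 5 and 3 of 5, with KRT8 at 2 and 2 and VIM at 1 and 0. Their intervals, 56.6% to 100% and 23.1% to 88.2%, also include the shares of all genes.

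Among the genes of translation, aminoacyl-tRNA synthetases had an exon peak in 18 and 14 of 19, with EPRS1 at 12 and 8 and LARS1 at 11 and 2. Translation initiation factors had one in 18 and 13 of 27, with EIF3A at 12 and 10 and EIF5B at 11 and 7, while EIF4E, EIF5A and EIF4A2 had 0 in both lists. Cytosolic ribosomal proteins had one in 16 and 8 of 72 (22.2% and 11.1%), among them RPSA with 3 and 2. Their median span was 5.03 kb. Ribosomal protein genes have many processed copies, and the counting of reads that match several copies is not stated, so these numbers are uncertain. Stress granule and PRRC2 proteins had one in 12 and 9 of 15, led by PRRC2C with 19 and 15.

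Splicing factors had an exon peak in 17 and 13 of 29 genes, with SRRM2 at 9 and 6 and SF3B2 at 6 and 6, while HNRNPA1, SRSF1 and SRSF2 had 0 in both lists. The proliferation list had one in 18 and 15 of 21, with MKI67 at 12 and 7 and TPX2, a spindle assembly factor, at 14 and 12. Nuclear encoded oxidative phosphorylation had one in 13 and 9 of 33, with UQCRC1 at 2 and 3 and ATP5F1B at 3 and 2, and ATP5F1C, NDUFA4 and SDHB had one in the lactate list only. Glycolysis had one in 6 and 4 of 12, with ENO1 and PKM at 3 and 1 each. Zinc finger genes named ZNF and a number had one in 96 (60.4%) and 51 (32.1%) of 159. The 15 measured messages described before as NSUN2 targets had one in 11 (73.3%) and 7 (46.7%), beside 60.9% and 40.4% of all genes. Their Wilson intervals, 48.0% to 89.1% and 24.8% to 69.9%, include the shares of all genes. Among them were CDK1 with 2 and 1, IRF3 with 3 and 2, GRB2 with 2 and 0 and MYC with 0 and 1. Of 7 m5C enzymes and readers 3 and 1 had one, ALYREF with 2 and 0 and YTHDF2 with 2 and 2. The intervals of the m5C, splicing and glycolysis lists include the shares of all genes in both conditions. The same holds for translation initiation factors and for stress granule and PRRC2 proteins. For zinc finger genes this holds with vehicle only, and for oxidative phosphorylation with lactate only. Exon peaks were fewer in the lactate list in every list named here, as over all genes.

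**Figure D4:**
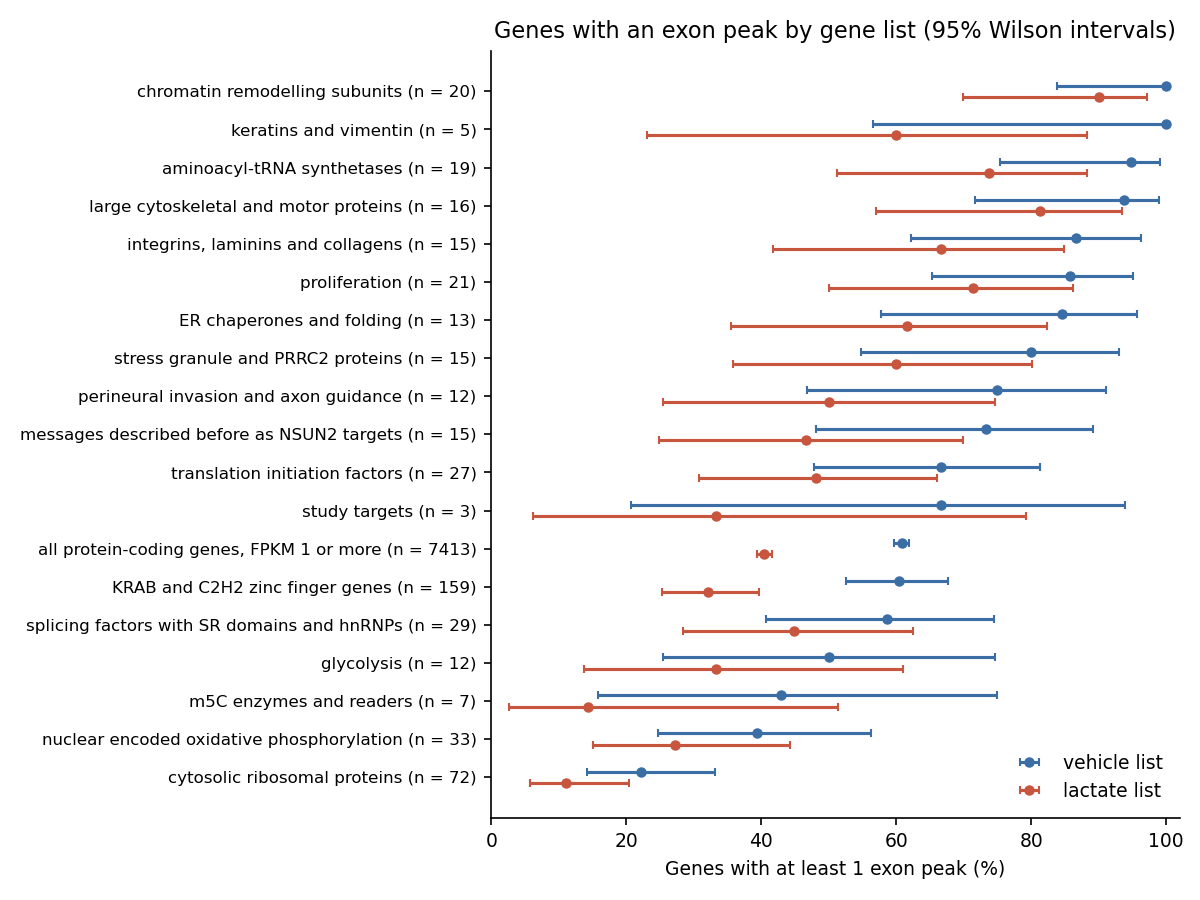
Share of measured genes with at least 1 exon peak (horizontal axis, %), by gene list (rows, with n), for the vehicle (blue) and lactate list (red); lines are 95% Wilson intervals of counting error. Chromatin remodelling subunits stand at 100% and 90.0% and cytosolic ribosomal proteins at 22.2% and 11.1%, around 60.9% and 40.4% for all genes.

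That table of the IP libraries gives M, the log2 ratio of normalized read density in the lactate IP over the vehicle IP. Of 116484 compared regions, 18697 overlapped an exon peak, 6237 of them built from peaks of both lists, 10485 from a vehicle peak only and 1975 from a lactate peak only. The median M over exon regions was −0.52 (interval −0.56 to −0.50), beside −0.50 over all regions. At M of at least 1, 1208 exon regions (6.46%) were counted, against 13.9% of all regions, and at M of at most −1 6734 (36.0%), against 38.6% of all. After taking off the median of all regions these shares became 13.6% and 22.9%. Since 38.7% of exon regions had under 10 reads in both libraries together, and 899 had 0 in each, single values of M are imprecise.

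In regions common to both lists the exon values leaned lower than those of introns. The median M there was −0.23 for exon (interval −0.25 to −0.22), 0.16 for intron (0.15 to 0.18), −0.07 for 3′ UTR (−0.09 to −0.05) and −0.34 for 5′ UTR regions (−0.39 to −0.26), beside 0.0033 over all common regions. M of at most −1 was reached by 937 common exon regions (15.02%) and M of at least 1 by 245 (3.93%), against 6.83% and 14.2% of common intron regions. Exon regions of 1 list only had medians of −1.12 for vehicle only and 0.60 for lactate only, beside −1.40 and 1.43 over all such regions. The regions of 1 list only were grouped by the list that called the peak, so their medians are not independent of that grouping. With 1 IP a condition no test of these differences was possible, and exon and intron regions differ in how often their reads fell short of the peak.

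**Figure D5:**
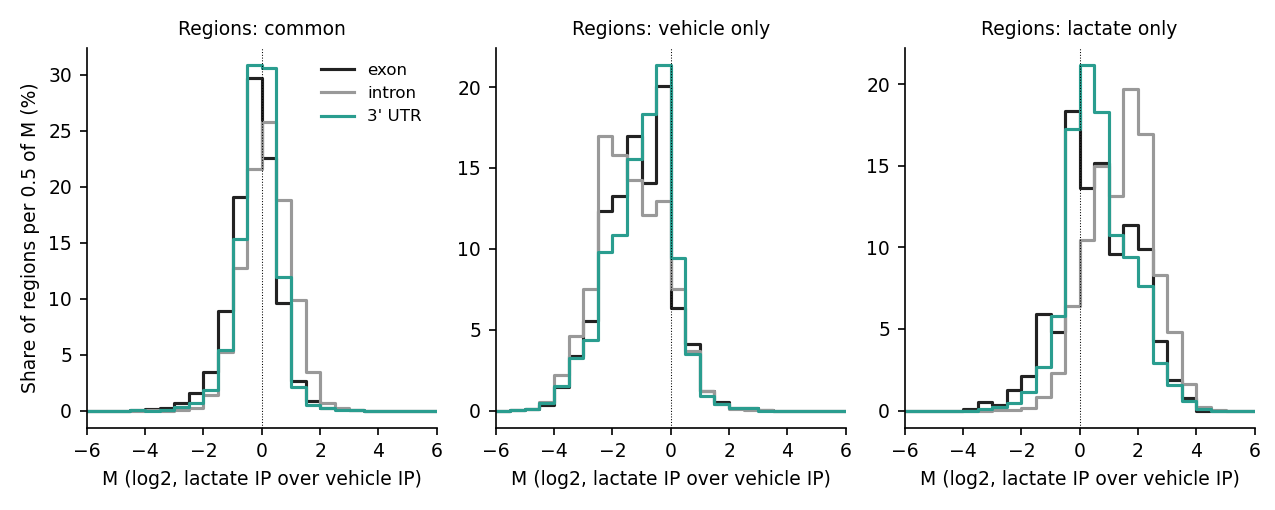
Distribution of M (horizontal axis, log2 of lactate IP over vehicle IP) as the share of regions in each step of 0.5 (vertical axis, %), for exon (black), intron (grey) and 3′ UTR regions (green), in regions common to both lists, from a vehicle peak only and from a lactate peak only. In the common regions the exon curve lies left of the intron curve, with medians of −0.23 and 0.16.

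Among exon regions with a deposited P score under 1e-05, 108 (0.578%) had M above 0 and 186 (0.995%) below 0, beside 393 (0.337%) and 339 (0.291%) of all 116484 regions and 224 and 90 of 14450 3′ UTR regions. The score rests on the reads of 2 libraries and is no test of the conditions. The highest M belonged to PDCD10, a gene of cerebral cavernous malformation, with 16 vehicle and 55 lactate IP reads (M 2.18, 95% counting interval 1.399 to 2.96; chr3:167683919-167684316). AHNAK2 followed with 426 and 638 reads (1.73, 1.56 to 1.91), CIB2 with 95 and 145 (1.39), the splicing factor LUC7L3 with 1818 and 1633 (1.29) and the kinase CSNK1E with 456 and 488 (1.22). LUC7L3 had fewer reads in the lactate IP and still a positive M, since M is taken from normalized densities, 552 and 1346 there. RABL6, RAB31, GPAA1, PNN and PAF1 closed the list, from 1.12 to 0.91. Of these, RAB31 (2022 and 1537 reads), PNN (821 and 660) and PAF1 (2670 and 1779) also had fewer reads in the lactate IP. The step from reads to M grew with the mean log2 signal of a region, so M was raised most where reads were many.

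The lowest M belonged to a region of PRRC2C, a stress granule protein, with 40 vehicle and 0 lactate IP reads (chr1:171517594-171517942). Its M was −5.28 (95% counting interval −8.14 to −2.42), and against a floor of 3 reads it was at least 8.63-fold lower in the lactate IP, a value that leaves out the counting error of the 40 reads. Of the 19 vehicle exon peaks of PRRC2C, 15 were overlapped in the lactate list and the others were not. A gene listed only by its Ensembl identifier, ENSG00000283128, had 51 and 1 reads (M −4.51, −6.55 to −2.47), ZNF814 47 and 1 (−4.40), GADD45GIP1 44 and 1 (−4.32) and TASOR2 59 and 2 (−4.06). LRIF1, SMARCC2, DSP, RPN2 and ZFP69 stood between −3.66 and −3.26. DSP thus held both one of the strongest exon peaks, with 191 and 89 reads, and a region of the lowest M, with 54 and 3 reads.

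At the level of whole genes, those with an exon peak were the more enriched ones. The enrichment is the log2 of (FPKM + 1) in the IP over the input of the same condition, taken for genes with FPKM of at least 1 in 1 of the 2 libraries. In vehicle cells 4494 genes with an exon peak had a median of 0.62 (interval 0.59 to 0.66), and 2869 without one −0.13. Of the former 1389 (30.9%) were at 1 or above, against 26.0% of all 7363 genes, and 377 (8.39%) at −1 or below, against 14.8%. In lactate cells 2444 genes with an exon peak had a median of 0.38 (0.33 to 0.43), and 3448 without one −0.48. Here 476 (19.5%) were at 1 or above, against 13.7% of all 5892 genes, and 262 (10.7%) at −1 or below, against 22.4%. After the median of all genes of each condition was taken off, the medians of genes with an exon peak became 0.21 in vehicle and 0.48 in lactate cells, so that their order turned. The IP and input reads of a library also set its peaks, so the 2 measures are not independent.

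The enrichment grew with the number of exon peaks. With 1, 2 to 4 and 5 or more exon peaks the medians were 0.49, 0.64 and 0.88 in vehicle cells and 0.20, 0.43 and 0.70 in lactate cells. Of the 6660 and 4068 genes with an exon peak, 6601 and 4038 were in the gene table, and 2107 and 1594 of these fell under the FPKM minimum in both libraries of the condition and have no value here. The medians over all genes were 0.42 in vehicle and −0.11 in lactate cells. Among the genes named for fold, number of peaks or as targets of the study, the highest in both conditions were PRRC2C (3.19 and 2.38) and MAP1B (3.09 and 2.35).

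CDCP1, a transmembrane glycoprotein of invasive cells, had 4 exon peaks in the vehicle and 3 in the lactate list. The strongest lay at chr3:45088902-45089329 with an authors' fold of 18.2 in the vehicle and at chr3:45088910-45089325 with 30.1 in the lactate list. Its region held 25 vehicle and 37 lactate IP reads, and M was 1.01 (95% counting interval 0.29 to 1.73). At steps of 0.607 and 0.517 a read, both folds stand for more reads than were recovered. This M is therefore uncertain beyond its counting interval. A second pair had folds of 7.52 and 14.8 with 104 and 75 reads (M 0.25, −0.17 to 0.68), and another 2.90 and 3.39 with 11 and 24 reads (1.38, 0.39 to 2.37). The fourth vehicle peak, at chr3:45094827-45095432 with a fold of 7.70, lay over a lactate peak that the authors annotated as intron; it had 21 reads in each IP and an M of 0.38 (−0.47 to 1.23). M was thus above 0 at all 4, with intervals that included 0 at 2 of them. At those 2, with 104 and 75 reads and with 21 in each IP, the lactate IP held no more reads than the vehicle IP. The enrichment of the whole CDCP1 message over its input was 2.04 in vehicle and 1.47 in lactate cells, beside medians of 0.42 and −0.11 over all protein-coding genes tested. Its FPKM was 3.13 before and 15.997 after precipitation with vehicle and 3.81 before and 12.4 after with lactate, on 359, 1418, 277 and 1222 reads. CDCP1 also had 4 and 4 peaks in the 3′ UTR and 11 and 7 in introns.

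NSUN2, the enzyme itself, had 2 weak exon peaks in the vehicle list, of fold 1.82 and 3.03 with q of 1 and 0.14, and 0 in the lactate list. Their regions held 2 and 1 vehicle IP reads and 0 and 1 lactate IP reads. STC1, a secreted glycoprotein hormone, had 0 exon peaks in both lists. Its listed peaks were 1 in the 5′ UTR in each list and 1 in the 3′ UTR in the lactate list. The enrichment of STC1 was −0.29 in vehicle (counting interval −0.77 to 0.19) and 0.25 in lactate cells (−0.23 to 0.74).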

How the data were processed

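RNA before (input) and after immunoprecipitation with an anti-NSUN2 antibody was sequenced from PANC-1 cells with lactate or vehicle, 1 library in each of 4 groups, from SMART-Seq v4 cDNA per the labels' protocols. The submitters' processing notes name MACS2 2.2.7.1, HOMER 4.11.1, bedtools 2.29.2, DiffBind, HISAT2 2.1.0 and fastp 0.20.1, and the builds GRCh38 and hg38. The annotation release, gene counter and its use of strand: not given in the sources used here. Deposited were, per the file headers, 1 peak list per condition with a fold enrichment (a ratio), a p-value, a q-value and their −log10 values per peak, and FPKM per gene. The authors also deposited a comparison of the IP libraries with normalized read density (a signal), M and A on the log2 scale and a P value that never exceeded 0.25 and served only as a score.

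Members were selected by biotype and annotation, and overlaps were counted from 1 bp. The members, gene lists and rules were chosen with earlier results of these data known. Named were, per list, the 10 genes of highest fold with q under 0.05 and the 10 with most exon peaks, the 10 highest and 10 lowest M with P under 1e-05, members of 18 gene lists, and CDCP1, STC1 and NSUN2. Of 863 list symbols 493 were measured. Whole reads were recovered from M and A (113289 regions with under 200 reads, 100% whole within 0.02 reads, same line used above that) and from FPKM (2 of 24483 genes failed), and log2 ratios used a pseudocount of 1 on FPKM. A factor common to the 4 libraries of a gene is lost there, so reads of a gene can be understated. Intervals at 95% are Wilson for shares, order statistics for medians and Poisson error of the reads for M, and cover counting error only, since the kit adds no molecular identifiers. Overlap counting and read recovery were tested on simulated data. Alternatives were other q, fold, overlap and M limits, pseudocounts and filters. Python 3.11.15, pandas 2.3.3, numpy 2.4.6 and scipy 1.17.1 were used. Symbols were matched to RefSeq GRCh38.p14.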

Additional observations from a re-analysis of the deposited data

Results flagged for a closer look

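The enrichment of a message, the log2 ratio of FPKM + 1 in the IP over the input, had opposite signs in vehicle and lactate cells for 3 of the 33 named genes that were measured in both conditions. CENPE, the kinetochore motor with 20 and 7 exon peaks, stood at 0.99 in vehicle and −0.17 in lactate cells. SLC5A3, which has the vehicle exon peak of highest fold, stood at 0.54 and −0.058. STC1, which has no exon peak, stood at −0.29 and 0.25, with counting intervals of −0.77 to 0.19 and −0.23 to 0.74 that both include 0. Only the signs were compared here, without regard to counting error. With 1 library in each group these differences were not tested, and the medians over all genes differed in the direction of CENPE and SLC5A3, at 0.42 in vehicle and −0.11 in lactate cells.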

How the results depend on the processing

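No paired analysis was possible because each group holds 1 library, and no library could be left out. The 62 alternatives turned the sign of no single value, and 48 moved a count of peaks or genes by over 1.5 times or another value outside its counting interval. Requiring q under 0.05 left 10312 vehicle and 4286 lactate exon peaks, with median widths of 397 and 372 bp, median folds of 4.85 and 4.86 and 2531 lactate genes, and q under 0.01 left 9177 and 3768 peaks. Adding both UTR annotations gave 30439 and 15731 peaks. A minimum of 10 recovered reads, chosen after seeing the data, left 8950 and 4571. A fold of 2 or more gave a vehicle width of 353 bp, and 2 or more exon peaks were held by 3464 and 1581 genes. The overlapped share of vehicle and lactate exon peaks became 26.3% and 56.5% at 50% of both peaks, 31.8% and 69.2% at 100 bp, 33.9% and 82.4% at q under 0.05 in both lists, 36.4% and 74.2% with any annotation, and 40.6% and 81.3% with at least 10 reads. Exon regions past M of 1.5 made up 3.88% and past −1.5 22.9%. With a P score under 0.01, 3.06% and 45.8% passed 1 and −1, and the median was −0.91. After taking off the median of all regions, 13.6% and 22.9% passed, and the median was −0.026. The median enrichment of genes with an exon peak, in vehicle and lactate cells, became 0.89 and 0.55 with a pseudocount of 0.1, 0.25 and 0.15 with 5, 0.35 and 0.23 with no minimum, 0.72 and 0.54 for genes with a peak of q under 0.05, and 0.21 and 0.48 after taking off the median of all genes. In that last setting lactate cells had the higher value, whereas vehicle cells had it in the others. The CNGGG and CTCCA shares stayed within their intervals at q under 0.05. A motif search over all exon peaks with a wider window was not run, since a genome was not given.

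Depth limits these results: the compared region of the median exon peak held 11 vehicle or 14 lactate recovered IP reads, and a weak peak in 1 list only is not shown to be absent from the other. At LRFN4 the reads recovered for the gene and for its peak differ, and the cause was not tested.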

Other observations

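MicroRNA hairpins lay inside an exon peak of the vehicle list only in RPL28 (MIR6805, fold 3.15), TRIM28 (MIR6807, 4.73), SNX8 (MIR6836, 3.10), FKBP1A (MIR6869, 7.59) and RPL10A (MIR7111, 1.39). In PLEKHJ1 the hairpin MIR1227 lay inside an exon peak of the lactate list only, with a fold of 2.55 and a q of 1. RPL28 and RPL10A encode ribosomal proteins, and TRIM28 the corepressor of zinc finger proteins. Of these 6 hairpins, MIR6805 and MIR6869 hold no CNGGG. The difference between the lists at these genes was not tested.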
